A study of Mus musculus with 8 samples.

Results

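The genes described here are 38 named members of the ribosome biogenesis and Myc-linked growth programme: 6 transcription factors of the Myc network, 28 genes of the nucleolus and of RNA polymerase I, and 4 enzymes of polyamine and nucleotide synthesis. They were chosen by name. Each was read on its brightest probe set that the array annotation assigns to a single gene, which gave 37 members of the 18193 genes so represented. Npm3 had no such probe set and has no value here.

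Making ribosomes is among the most costly tasks of a growing cell. RNA polymerase I transcribes the ribosomal RNA precursor in the nucleolus, small nucleolar ribonucleoproteins (snoRNPs) modify it, and processing factors cut and assemble it into the small and the large subunit. The transcription factor Myc, which binds the DNA sequence CACGTG together with its partner Max, raises many genes of this programme and of nucleotide and polyamine synthesis, and resting B cells raise it when they are activated.

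The arrays came from C57BL/6 mice aged 12 weeks. Of 8 arrays, 4 held splenic B cell RNA of irf4-/- mice (Irf4 null) and 4 that of their irf4+/+ littermates (wild type). Irf4 encodes a transcription factor of lymphocytes that activated B cells need to become plasma cells. Cells other than B cells had been removed with magnetic beads, no stimulus is named in the labels, and the labels do not give the deleted part of Irf4, the mouse behind each array or its sex. Where arrays do not stand for separate mice, part of the spread behind the p-values is technical.

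Irf4 itself went the way of the labels: its brighter probe set ranged from 1720 to 2341 in wild type and from 244 to 315 in Irf4 null, at -2.76 ± 0.12 on the log2 scale (SE; limma, adjusted p = 4.61e-06). Whether this probe set lies in the deleted part is not known. The 7 B cell markers measured summed to 75087 to 89842 per array, and none was called (limma; 0 at an unadjusted p below 0.05). Other cell types differed between arrays. Xist, the RNA of the inactive X chromosome, was low on 4 arrays, which are called Xist-low here and on which the Y-linked Eif2s3y was high: array 2 of the wild type and arrays 2, 3 and 4 of the null. The 4 others are Xist-high. The 53 markers of T, NK, myeloid, dendritic, erythroid and platelet cells summed to 29839 to 110235 per wild-type array and 42414 to 130256 per Irf4 null array, with the wild-type maximum on array 2. Their lowest signal was 4.06 (Hba-a1) and none was at 0. Of 50 tested, 43 lay above 0 with a median of 0.75, 3 rose in Irf4 null (Prf1, Klre1 and Ppbp), and 18 were higher and 0 lower at an unadjusted p below 0.05 (limma). Of 4 plasma cell markers tested 2 fell without overlap between genotypes: Jchain, which joins secreted antibodies, at -6.00 ± 0.47 (adjusted p = 8.04e-05) and Sdc1, a surface proteoglycan, at -2.69 ± 0.33 (adjusted p = 0.00137); the part of plasma cells in the members' values was not tested either. In RNA of a whole preparation, fewer cells of a type and less RNA per cell cannot be told apart. The part of these cells, and of sex, in the results below was not tested. The main counts are also given with the Xist split in the fit.

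Irf4 null and wild-type B cells differed past the threshold in 1 of the 37 members. Odc1, ornithine decarboxylase, which makes the first polyamine, rose, and no member fell. Of all 27022 tested probe sets 3.52% were called at an adjusted p below 0.05 (2.01% higher and 1.51% lower), and of 11798 genes at 1 probe set a gene 4.37% (2.67% higher and 1.7% lower). The members' share of 2.70% lies near these, so their count is not a result about them as a group. At an unadjusted p below 0.05, 13 members were higher and 1 was lower (limma). That background was 17.1% of all probe sets, 9.06% higher and 8.01% lower, and 20.4% of genes, 11.9% higher and 8.48% lower. The members' counts were 7 higher and 2 lower with each array shifted to a common median, beside 16.4% of all probe sets. With the mean of the other-cell-type markers as a covariate they were 5 higher and 1 lower, beside 13.8% of all probe sets. The fold changes were small: they ran from -0.77 (Mycn, on a dim probe set) to 0.59 (Odc1). Their median was 0.12 on the log2 scale, beside 0.025 over all genes and 0.0030 over all probe sets. Of the 37, 30 lay above 0, where 50.6% of all probe sets and 54.6% of genes did. With the Xist split as a term Odc1 was again the only member called. There 2.36% of all probe sets were called (1.41% higher, 0.947% lower) and 3.08% of genes (1.97% higher, 1.1% lower). At an unadjusted p below 0.05, 8 members were higher and 1 lower in that fit (limma), beside 13.8% of all probe sets (7.53% higher, 6.27% lower) and 16.4% of genes (9.71% higher, 6.7% lower). The member median was 0.098 with 26 of 37 above 0, beside 51% of probe sets and 53.4% of genes.

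**Figure D1:**
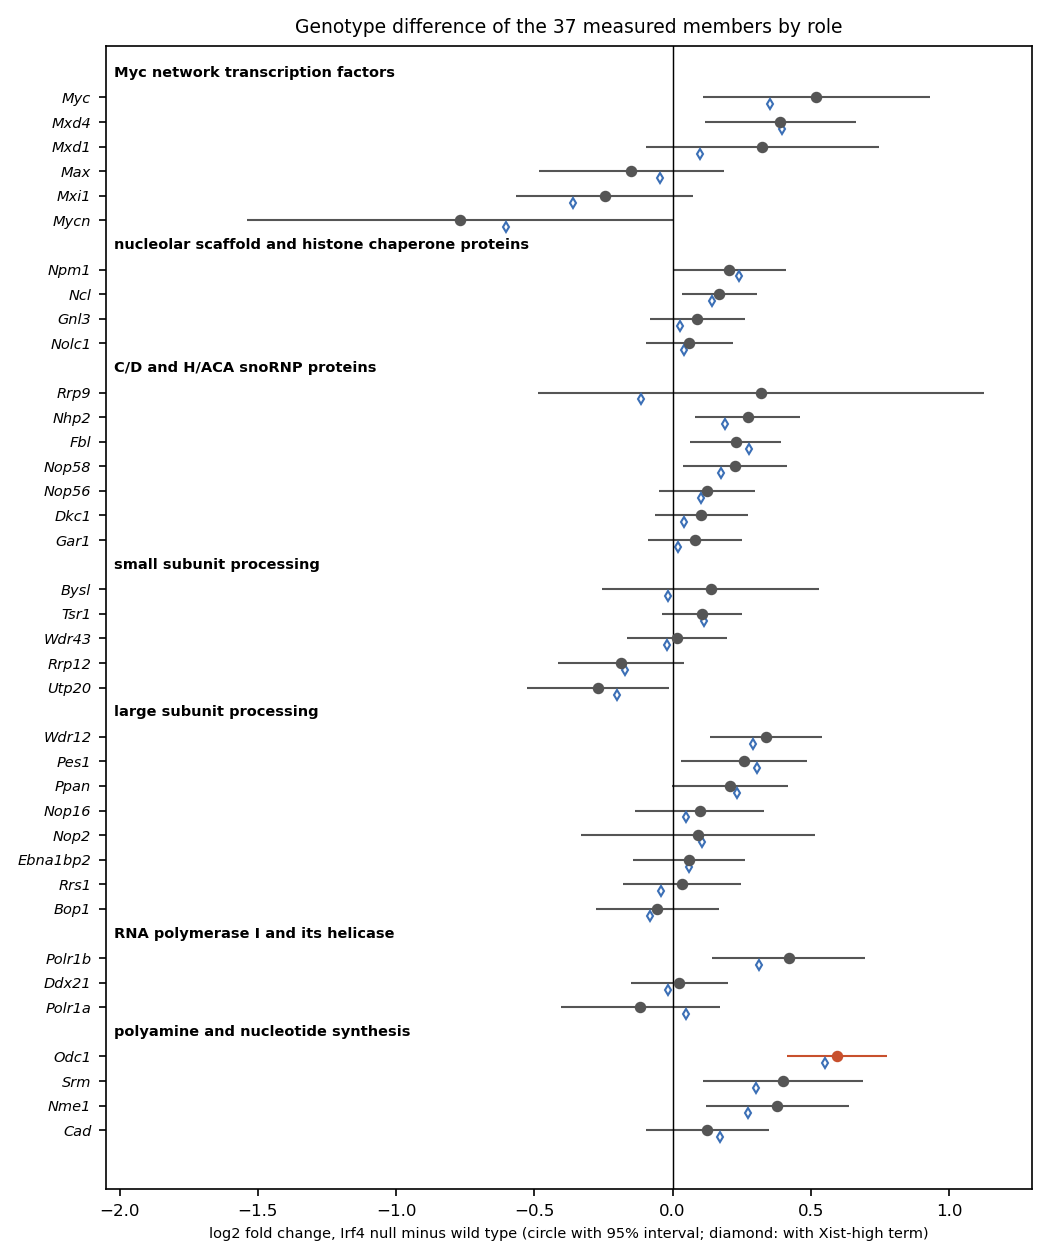
Log2 fold change of each of the 37 measured members (Irf4 null minus wild type, 4 arrays each) with its 95% interval from the fit, grouped by role, and as open diamonds the value with the Xist-high term. Odc1, in orange, is the member called at an adjusted p below 0.05; most circles lie a little to the right of 0, and Mycn lies farthest to the left at -0.77.

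In 10 members every Irf4 null array read above every wild-type array (Mxd4, Ncl, Fbl, Nhp2, Wdr12, Ppan, Polr1b, Srm, Odc1 and Nme1), and in 1, Rrp12, every Irf4 null array read below. Over all tested probe sets 5.48% were separated upward and 5.33% downward, or 7.13% and 5.71% of genes at 1 probe set a gene. In the other 26 members the genotypes overlapped. Except for Odc1, the separated members did not pass the adjusted threshold, and their differences are given as values.

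The enzymes of polyamine and nucleotide synthesis had the highest median of the 7 role groups, a log2 fold change of 0.39 over 4 members. Their median was 0.29 with the Xist-high term and 0.49 within the Xist-high arrays. Within the Xist-low arrays it was 0.087, and there the scaffold proteins of the nucleolus had the highest median, 0.11. Odc1 read 5061, 5103, 4219 and 4668 on wild-type arrays 1 to 4 and 7049, 6614, 7248 and 7852 on Irf4 null arrays 1 to 4. The groups did not overlap, and the lowest Irf4 null array stood well above the highest wild-type array. The mean signal went from 4763 ± 412 (SD, n = 4) to 7191 ± 514, 51.0% more, or 0.59 ± 0.08 on the log2 scale (SE; limma, adjusted p = 0.00273). A separate probe set of Odc1 was also called (0.68 ± 0.10, adjusted p = 0.00317), and the dimmest of its 3 was at 0.53 ± 0.13 (adjusted p = 0.0605) with no overlap between groups. The brightest is of the kind that can also match related transcripts, and the part of that in its value was not tested. With the Xist-high term Odc1 was at 0.55 ± 0.09 (adjusted p = 0.0107). Within the 4 Xist-high arrays its log2 fold change was 0.60 (adjusted p = 0.0775) and within the 4 Xist-low arrays 0.50 (adjusted p = 0.238), each with a lone array in 1 genotype.

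Srm, spermidine synthase, which acts after ornithine decarboxylase, read 967, 1326, 836 and 1200 on the wild-type arrays against 1432, 1395, 1361 and 1453 on the null arrays. The 4 Irf4 null arrays lay close together and above all wild-type arrays, of which array 2 came nearest. Its log2 fold change was 0.40 ± 0.13 (limma, adjusted p = 0.136). Nme1, a nucleoside diphosphate kinase, read 6014, 8393, 5700 and 7619 on the wild-type arrays against 8744, 9619, 8418 and 8861 on the null arrays, at 0.38 ± 0.12 (adjusted p = 0.115). The lowest Irf4 null array exceeded wild-type array 2 by a narrow margin. Its probe set is of the same kind as that of Odc1, and its close relative Nme2, which is not a member, was at 0.28 ± 0.07 (adjusted p = 0.0503). The dimmer probe set of Nme1 was at 0.33 ± 0.10 (limma, adjusted p = 0.0964) with separated groups. Cad, the trifunctional enzyme that starts pyrimidine synthesis, read 659, 707, 628 and 729 against 852, 738, 668 and 723, at 0.12 ± 0.10 (adjusted p = 0.596), with overlapping groups. Without wild-type array 2, Srm and Nme1 were called, as were Myc, Nhp2 and Wdr12. The count of members called went from 1 to 6, while the share called went to 8.04% of all probe sets and 10.8% of genes. All wild-type arrays left are then Xist-high, while Irf4 null arrays 2, 3 and 4 are Xist-low. That fit can hardly tell genotype from the Xist split.

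**Figure D2:**
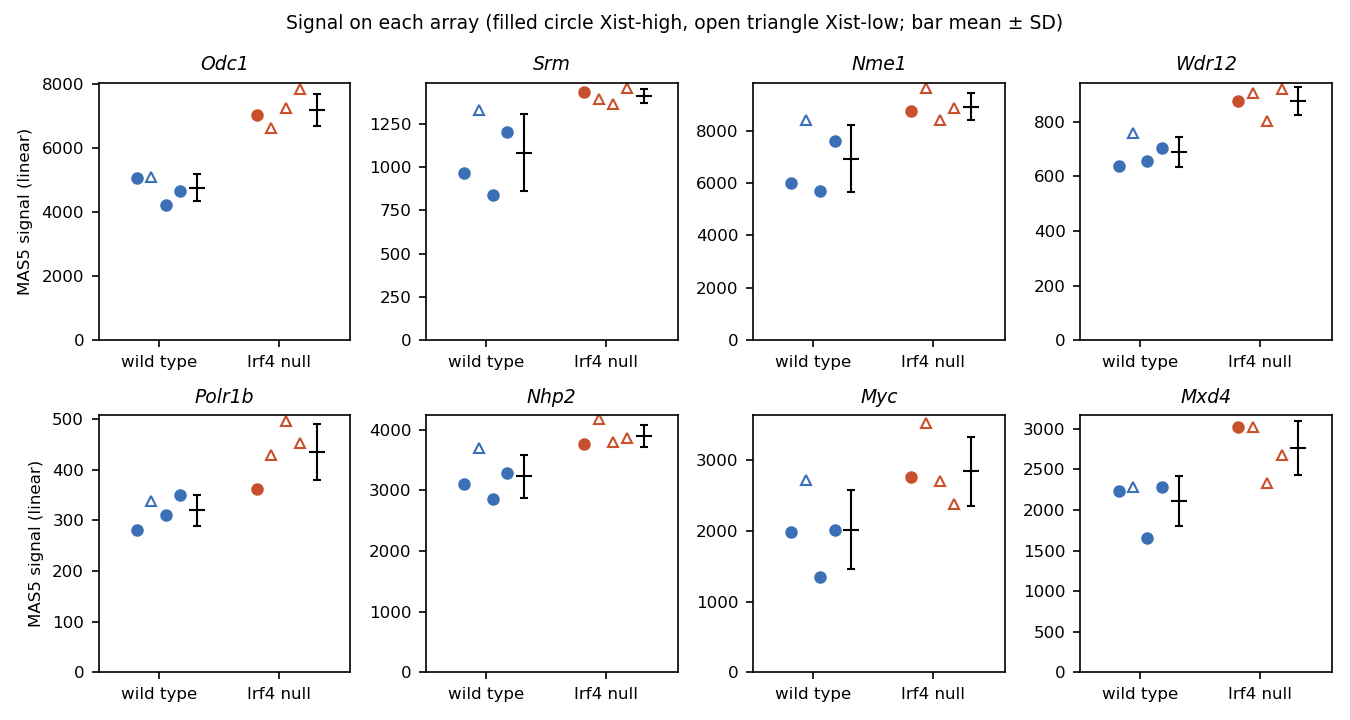
MAS5 signal on a linear axis from 0 for 8 members, 1 point per array, with the mean ± SD (n = 4) beside each group; filled circles are Xist-high and open triangles Xist-low arrays. Odc1 shows the widest gap between genotypes. In Srm, Nme1, Wdr12, Nhp2 and Myc the highest wild-type point is array 2, the Xist-low array of that group.

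The promoters of the 4 members with the smallest p-values among those with an entry are shown because CACGTG, the E-box that Myc and Max bind, is the sequence by which this gene set is usually linked to Myc. Each line holds the 250 bases before the annotated start, 5′ to 3′ (RefSeq, build GRCm38.p6; of the start sites listed, the first), in lower case with any CACGTG in capitals.
Odc1 (chr12:17544623-17544872, plus strand): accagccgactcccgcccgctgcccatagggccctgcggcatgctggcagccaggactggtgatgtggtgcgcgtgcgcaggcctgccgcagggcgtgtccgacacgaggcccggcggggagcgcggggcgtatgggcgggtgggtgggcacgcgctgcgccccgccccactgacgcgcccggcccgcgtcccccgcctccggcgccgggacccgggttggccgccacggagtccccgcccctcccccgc
Wdr12 (chr1:60098501-60098750, minus strand): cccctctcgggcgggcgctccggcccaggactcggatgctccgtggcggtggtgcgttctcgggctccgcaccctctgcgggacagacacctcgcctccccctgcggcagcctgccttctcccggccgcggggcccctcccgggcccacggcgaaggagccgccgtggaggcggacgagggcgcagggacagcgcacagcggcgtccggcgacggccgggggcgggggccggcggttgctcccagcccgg
Polr1b (chr2:129100746-129100995, plus strand): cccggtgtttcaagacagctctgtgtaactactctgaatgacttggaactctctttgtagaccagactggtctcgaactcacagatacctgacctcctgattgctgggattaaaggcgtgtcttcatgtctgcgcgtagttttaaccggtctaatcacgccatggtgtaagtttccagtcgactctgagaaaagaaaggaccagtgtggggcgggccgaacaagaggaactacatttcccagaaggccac
Nme1 (chr11:93968273-93968522, minus strand): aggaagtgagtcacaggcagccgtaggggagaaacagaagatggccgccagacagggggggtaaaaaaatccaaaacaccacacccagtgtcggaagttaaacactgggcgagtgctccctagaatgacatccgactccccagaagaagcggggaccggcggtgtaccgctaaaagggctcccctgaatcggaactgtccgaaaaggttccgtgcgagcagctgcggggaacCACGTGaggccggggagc
The Nme1 promoter holds a CACGTG whose first base lies at position -18 from the start, and the windows shown for Odc1, Wdr12 and Polr1b hold none. Windows of 300 bases, from 250 before to 50 after the start, were found for 31 of the 38 members; Myc, Npm1, Fbl, Rrp12, Rrs1, Bop1 and Srm were not matched. CACGTG, which reads the same on both strands, was present for 8 of the 31 (25.8%): Max, Mxd4, Nme1, Nop2, Pes1, Tsr1, Utp20 and Wdr43. The share over all 27025 genes with a window was 8.09%. The 8 had a median log2 fold change of 0.100 with 6 above 0, and the 22 measured members whose windows lack it had 0.12 with 19 above 0. A match is a stretch of letters and not a measured site, and nothing follows from its absence in this window.

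Among the transcription factors of the Myc network, none of the 6 was called (limma; 2 had an unadjusted p below 0.05, Myc and Mxd4). Myc itself read 1978, 2718, 1350 and 2005 on the wild-type arrays against 2751, 3518, 2703 and 2375 on the null arrays. Wild-type array 2 read above 2 of the Irf4 null arrays, so the groups overlapped. The null mean was 40.9% higher, or 0.52 ± 0.19 on the log2 scale with an interval of 0.11 to 0.93 (adjusted p = 0.173), and 0.35 with the Xist-high term (adjusted p = 0.462). Within the Xist-high arrays the value was 0.65 and within the Xist-low arrays 0.056, a difference that was itself tested and not called (interaction, adjusted p = 0.754). Max, the partner that Myc needs to bind DNA, read 1009, 898, 772 and 790 against 1009, 717, 830 and 603, at -0.15 ± 0.15 (adjusted p = 0.686).

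The Mxd and Mxi1 proteins compete with Myc for Max and repress the same sites. Mxd4 read 2235, 2280, 1653 and 2281 on the wild-type arrays against 3026, 3019, 2330 and 2682 on the null arrays, at 0.39 ± 0.12 (limma, adjusted p = 0.122), without overlap, although Irf4 null array 3 lay close to 3 of the wild-type arrays. Of its dimmer probe sets, 1 was at 0.48 ± 0.14 (limma, adjusted p = 0.102) with separated groups. The others were at 0.28 ± 0.19 and 0.069 ± 0.201, with overlap. Mxd1 read 322, 486, 315 and 313 against 376, 633, 435 and 380, at 0.33 ± 0.19 (adjusted p = 0.435) and at 0.098 with the Xist-high term; array 2 was the highest in both genotypes. Mxi1 read 779, 795, 735 and 699 against 523, 640, 863 and 548, at -0.24 ± 0.15 (limma, adjusted p = 0.439). It was lower on 3 of 4 Irf4 null arrays than on any wild-type array. The dimmer probe set of Mxi1 was at -0.39 ± 0.17 (adjusted p = 0.267), separated downward. Mycn, a relative of Myc used mainly in early development, was dim throughout: it read 76.8, 65.4, 29.9 and 116 against 51.2, 15.6, 41.3 and 28.7, near the signal of 42.9 that the filter on dim probe sets corresponds to. Its log2 fold change of -0.77 ± 0.35 (adjusted p = 0.295) is uncertain in size, since the files used here hold no detection calls.

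None of the 4 measured scaffold proteins of the nucleolus was called (limma; 2 at an unadjusted p below 0.05), with a median of 0.13. Ncl, nucleolin, an RNA-binding protein of pre-ribosomes, read 11556, 12177, 11286 and 12651 on the wild-type arrays against 12940, 13829, 13407 and 13394 on the null arrays. The groups did not overlap, and the difference of 12.4% in the mean corresponds to 0.17 ± 0.06 (limma, adjusted p = 0.175). The 4 other Ncl probe sets were at 0.11 to 0.24, all with overlap. Npm1, nucleophosmin, a histone and ribosome chaperone, read 15829, 16568, 16312 and 20715 against 20508, 21098, 20341 and 17813, at 0.21 ± 0.09 (adjusted p = 0.291), where wild-type array 4 stood among the Irf4 null arrays. Gnl3, nucleostemin, was at 0.090, and Nolc1, which moves snoRNPs to the nucleolus, read 1765, 1906, 1865 and 1931 against 1908, 1950, 2067 and 1863, at 0.060 ± 0.071 (adjusted p = 0.734).

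All 7 snoRNP proteins were above 0, with a median of 0.23 and none called (limma; 3 at an unadjusted p below 0.05). With the Xist-high term the median was 0.10 and 6 lay above 0. Within the Xist-high arrays the median was 0.045 and within the Xist-low arrays 0.093. Fbl, fibrillarin, the methyltransferase of the C/D particles, read 5811, 5231, 4909 and 5525 on the wild-type arrays against 6765, 6172, 6316 and 5887 on the null arrays, at 0.23 ± 0.07 (adjusted p = 0.135). Its dimmer probe set was at 0.26 ± 0.08, and in both the groups were separated. Nop56 and Nop58, core proteins of the same particles, were at 0.12 and 0.23. Nhp2, a core protein of the H/ACA particles that turn uridine into pseudouridine, read 3109, 3691, 2848 and 3280 against 3755, 4169, 3790 and 3860, at 0.27 ± 0.09 (adjusted p = 0.122). Of the other H/ACA proteins Dkc1, the pseudouridine synthase, was at 0.10 and Gar1 at 0.080 ± 0.077 (1995, 2122, 1853 and 1962 against 1972, 2265, 2037 and 2117). Rrp9, which binds the U3 snoRNA, varied widely among arrays of a genotype, at 160, 244, 70.0 and 234 against 115, 226, 324 and 205, and its value went from 0.32 ± 0.37 to -0.11 with the Xist-high term.

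Factors of the small subunit had the lowest median of the 7 groups, 0.015, and none of the 5 was called (limma; 1 at an unadjusted p below 0.05). With the Xist-high term their median was -0.020. Utp20, a large scaffold of the small subunit processome, read 1030, 929, 1035 and 1179 on the wild-type arrays against 889, 929, 697 and 949 on the null arrays, at -0.27 ± 0.12 (limma, adjusted p = 0.269). Every Irf4 null array lay below the wild-type mean, and the second array of each genotype read nearly the same. Rrp12, an export factor, read 357, 333, 342 and 358 against 300, 312, 281 and 321, at -0.19 ± 0.10 (adjusted p = 0.399), with no overlap. Bysl, an assembly factor, read 388, 739, 410 and 511 against 585, 569, 538 and 499, at 0.14 ± 0.18 (adjusted p = 0.76), and wild-type array 2 was the highest of all 8. Tsr1, a GTPase-like factor of late assembly, read 2951, 2906, 2868 and 3036 against 3178, 3173, 2992 and 3325, at 0.11 ± 0.07. Wdr43, of the early processome, was at 0.015 with overlapping groups, while its dimmer probe set was at 0.26 ± 0.09 (limma, adjusted p = 0.141) with separated groups. The difference between these probe sets was not tested.

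Of 8 factors of the large subunit 7 were above 0, with a median of 0.095 and none called (limma; 2 at an unadjusted p below 0.05). Wdr12, Bop1 and Pes1 form the PeBoW complex, which large subunit maturation needs, and its 3 subunits ranged from -0.055 to 0.34, differences between them that were not tested. Wdr12 read 639, 759, 656 and 704 on the wild-type arrays against 875, 906, 803 and 919 on the null arrays, a separated difference of 0.34 ± 0.09 (adjusted p = 0.0763); its dimmer tested probe set was at 0.019 ± 0.152. Pes1 read 1866, 1724, 1694 and 1527 against 2280, 1961, 2223 and 1726, at 0.26 ± 0.10 (adjusted p = 0.225), and its dimmer probe set at 0.50 ± 0.13 (adjusted p = 0.0608). Bop1 read 628, 730, 587 and 669 against 664, 566, 629 and 651, at -0.055 ± 0.101 (adjusted p = 0.839), an interval of -0.28 to 0.17. Ppan, a further biogenesis factor, was at 0.21 ± 0.10 with separated groups, and Nop16, Nop2, Ebna1bp2 and Rrs1 lay between 0.034 and 0.097. The dimmer tested probe set of Ebna1bp2 was at 0.45 ± 0.17 (limma, adjusted p = 0.205) with separated groups. Those of Nop16 and Rrs1 were at 0.23 ± 0.22 and 0.066 ± 0.096, with overlap. Rrs1, which helps to bring the 5S particle into the large subunit, read 3064, 3378, 3355 and 3762 against 2941, 3874, 3479 and 3625 and overlapped fully. The probe set of Rrs1 is of the same kind as that of Odc1.

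Both large subunits of RNA polymerase I were measured, with values on either side of 0, and neither was called (limma; 1 at an unadjusted p below 0.05). Polr1b, the second largest, read 281, 338, 311 and 350 on the wild-type arrays against 363, 428, 496 and 452 on the null arrays, separated at 0.42 ± 0.13 (limma, adjusted p = 0.105). Polr1a, the largest, read 706, 502, 569 and 584 against 656, 507, 511 and 496, at -0.12 ± 0.13 (adjusted p = 0.714), while its 2 dimmer tested probe sets were at 0.10 and 0.22. Ddx21, a nucleolar RNA helicase that acts in ribosomal RNA transcription and processing, read 2452, 2522, 2192 and 2314 against 2349, 2548, 2196 and 2556, at 0.025 ± 0.080 with an interval of -0.15 to 0.20.

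**Figure D3:**
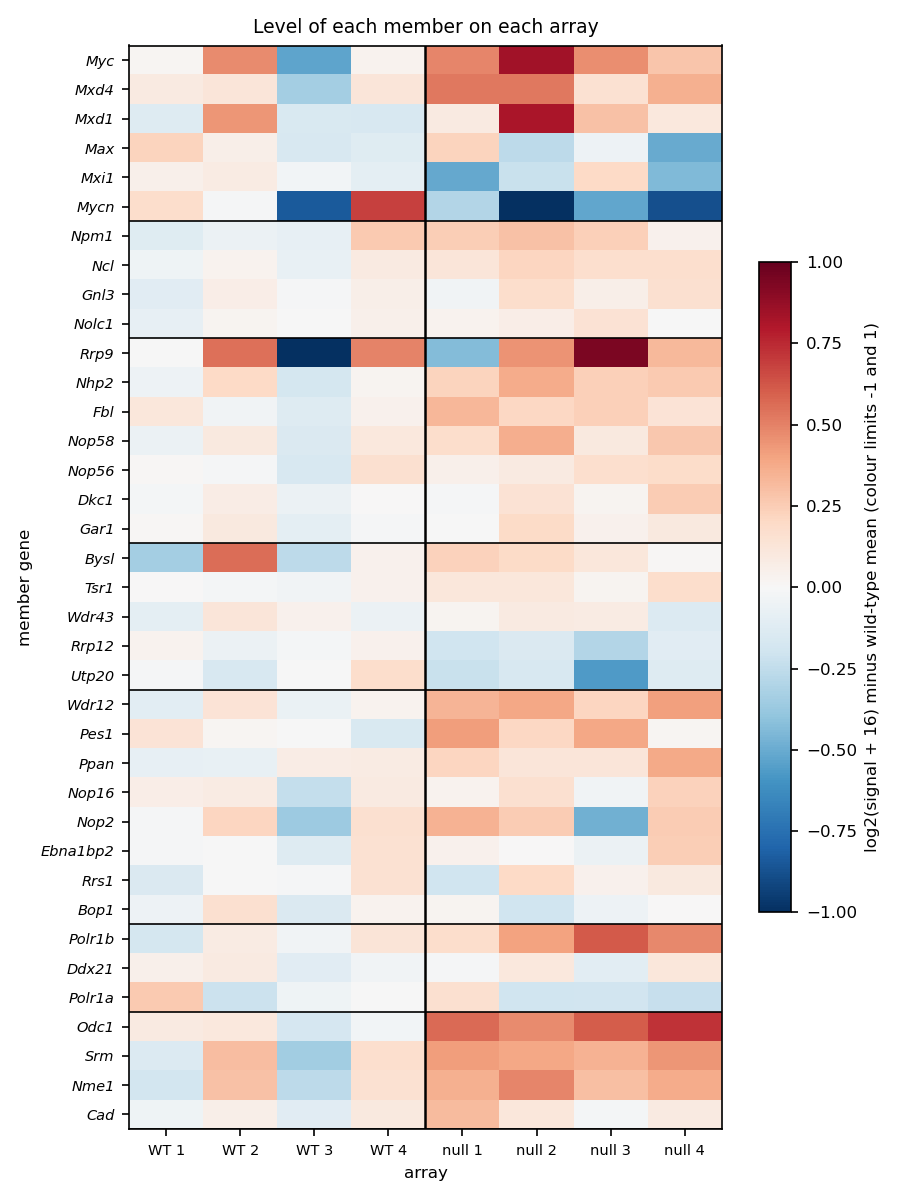
Level of each of the 37 members (rows, separated by role, in the order of the fold change plot) on each array (columns), as log2(signal + 16) minus the gene's wild-type mean; red is above it and blue below. Odc1 and Myc, among others, are red on all 4 Irf4 null arrays, and Mycn, Utp20 and Rrp12 are blue on all 4. Myc, Rrp9 and Mycn vary within each genotype.

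Of 41 further probe sets of the members 33 were bright enough to be tested. Of these 28 had the sign of the chosen probe set, 5 the opposite sign (for Nolc1, Bysl, Bop1 and 2 of Polr1a), and 1, of Odc1, was called. With all probe sets of a member averaged, Pes1 was called besides Odc1, and the median was 0.16.

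The level of the members as a group moved over a narrow range. Averaged over the 31 members outside the Myc network, the log2 level was 10.67, 10.79, 10.57 and 10.78 on wild-type arrays 1 to 4 and 10.83, 10.88, 10.81 and 10.87 on Irf4 null arrays 1 to 4. Every Irf4 null array thus lay above every wild-type array, narrowly at the nearest (10.81 against 10.79), and this difference of means was not tested. Cell cycle genes, which are not members, ran on the same arrays from 9.30 to 10.40 in wild type and from 9.90 to 10.58 in Irf4 null, highest in each genotype on Xist-low arrays, and markers of other cell types from 7.73 to 9.12 and from 8.20 to 9.39. None of the 37 members differed between Xist-high and Xist-low arrays at an adjusted p below 0.05 with genotype in the fit (limma; 3 at an unadjusted p below 0.05, against 12.8% of all probe sets), and 24 of 37 were lower on Xist-high arrays. Mxd1 (-0.45 ± 0.17), Rrp9 (-0.87 ± 0.33) and Polr1a (0.33 ± 0.12) are these 3. With the mean of the other-cell-type markers as a covariate the member median was 0.098, and Odc1 was again called, at 0.57. The 3′ to 5′ signal ratio of Gapdh, a measure of RNA quality, was 0.854 to 0.921 in wild type and 0.889 to 1.02 in Irf4 null, and that of Actb 1.31 to 1.41 and 1.21 to 1.35.

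**Figure D4:**
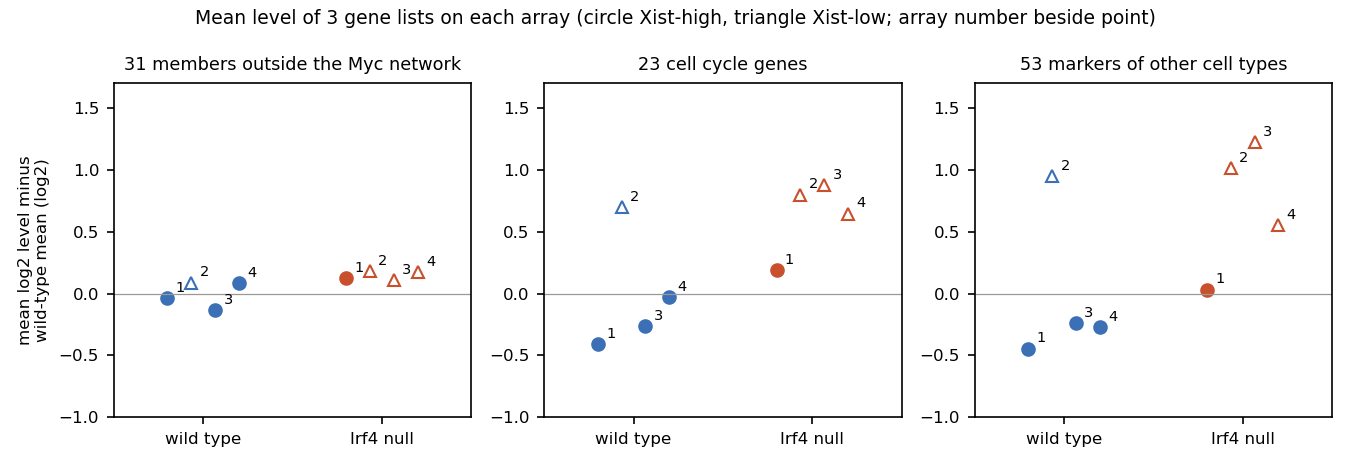
Mean log2(signal + 16) of the 31 members outside the Myc network, of 23 cell cycle genes and of 53 markers of other cell types on each array, shown as the difference from the wild-type mean on 1 common axis; numbers name the array, circles are Xist-high and triangles Xist-low. The members spread far less than the other lists, for which wild-type array 2 stands with the Xist-low Irf4 null arrays.

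The same pathways hold 116 further listed genes, of which 106 were tested. In Irf4 null 1 was called higher and 1 lower, 104 were not called, and the median was 0.017 with 65 above 0. Mdn1, the giant ATPase that strips factors from large subunit precursors, read 963, 924, 853 and 923 on the wild-type arrays against 1357, 1464, 1195 and 1541 on the null arrays and rose by 0.59 ± 0.10 (limma, adjusted p = 0.007), with 0.57 and an adjusted p of 0.0229 with the Xist-high term. It was the 1 called of 30 further large subunit factors, of which 6 were higher and 0 lower at an unadjusted p below 0.05 (limma). The gene that fell, the 1 called of 8 further Myc network genes, is Fbxw7, whose ubiquitin ligase marks Myc for degradation; it went from 1450 ± 111 (SD, n = 4) to 1026 ± 113 and did not pass with the Xist-high term (adjusted p = 0.0662). Of the other 7, Mycl, a dim relative of Myc, had the largest difference (1.01 ± 0.49, adjusted p = 0.33), and Mxd3, a further Myc antagonist, was separated upward (0.56 ± 0.16, adjusted p = 0.101); both are named after their values were seen. Among 35 further small subunit factors none was called (limma; 3 at an unadjusted p below 0.05, led by Wdr75 at 0.25 ± 0.09, adjusted p = 0.18), and among 11 of RNA polymerase I none (1 at an unadjusted p below 0.05, Tcof1, at -0.29 ± 0.12, adjusted p = 0.223). Of 17 further nucleotide synthesis enzymes none was called (limma; 7 higher and 1 lower at an unadjusted p below 0.05). Their median was 0.18, and it was 0.098 with the Xist-high term and 0.048 with the marker covariate. In 5 the null arrays all lay above the wild-type arrays, where 5.48% of all probe sets and 7.13% of genes did. Nme2, given above, had the smallest p. Of 5 further polyamine genes none was called (limma; 1 at an unadjusted p below 0.05, Smox, spermine oxidase, at 0.74 ± 0.31, adjusted p = 0.24), and their median was -0.0031. Of 23 cell cycle genes Nusap1, a spindle protein, rose (1.13 ± 0.25, adjusted p = 0.0336). Of the 23, 21 lay above 0 and 13 were higher and 0 lower at an unadjusted p below 0.05 (limma); their median was 0.68, and 0.21 with the Xist-high term.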

How the data were processed

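Each deposited value is a linear MAS5 signal intensity of 1 probe set on 1 array, computed by the authors per the submitters' processing notes, which name no version or scaling target. RNA (6 µg) was labelled and hybridised, per the labels' protocols. The 2% trimmed mean was 500.003 on every array, so no further normalization was applied. Of 45101 probe sets, 34958 carry 1 gene symbol in the platform annotation, of which 34754 were updated through RefSeq (GRCm38.p6), 932 several and 9211 none; 64 control probe sets were left out.

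Values were taken as log2(signal + 16), the lowest 40% of probe sets by mean were dropped, and genotypes were compared with limma 3.58.1 (R 4.3.3; lmFit, eBayes with trend) over 27022 probe sets, Benjamini-Hochberg adjusted p below 0.05. The added 16 shrinks folds of dim probe sets. The fit was tested on simulated data. Each member's probe set is the single-gene one with the highest mean signal. Members, lists and the Xist split (signal over 1000) were chosen with earlier results of these data known. The interaction with the split, the split's own effect, and leaving out wild-type array 2 with Irf4 null array 3 were added after the values were seen. Array values were given for the Myc network, called members and, per role, the highest and lowest fold change and the brightest, plus others singled out after their values were seen. Figures were drawn with matplotlib 3.10.9. The number of arrays limits the precision.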

Additional observations from a re-analysis of the deposited data

Results flagged for a closer look

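In groups of 4 arrays, a lone value was called far from the others when its gap to the nearest, over the group's range of log2(signal + 16), exceeded Dixon's 95% critical value for 4 samples. Of 46 groups tested (23 members in 2 genotypes) 4 were, where chance flags about 1 in 20. Mxd1 read 486 on wild-type array 2 and Npm1 20715 on wild-type array 4, both above the rest of their group. Mxd4 read 1653 on wild-type array 3, below the rest, and Polr1a 656 on Irf4 null array 1, above the rest. No genotype difference of a member was called to differ between Xist-high and Xist-low arrays (limma interaction; 1 of 37 at an unadjusted p below 0.05, and 0 of 27022 probe sets called with 2038 at an unadjusted p below 0.05).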

How the results depend on the processing

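Members called. Odc1 was the only member called under both other pseudocounts, both other filters, quantile normalization, a common median, both other variance models, the Xist-high term, the marker covariate and an adjusted p below 0.01. The count was 4 with array weights (Nhp2, Wdr12, Odc1, Nme1), 2 with all probe sets of a member averaged, 7 without wild-type array 2 and Irf4 null array 3 together, and 0 within the Xist-high arrays (limma; 10 at an unadjusted p below 0.05) and 0 within the Xist-low arrays (2 at an unadjusted p below 0.05), where fewer arrays enter. It ran from 1 to 6 with 1 array left out, the 6 being without wild-type array 2. Of 27022 probe sets, 1746 were called with array weights and 1776 without the 2 arrays together. At an unadjusted p below 0.05 were 15 members and 21.1% of probe sets, and 16 and 21.0% (limma). Without the 2 arrays, all wild-type arrays left are Xist-high, while Irf4 null arrays 2 and 4 are Xist-low. That fit can hardly tell genotype from the Xist split. The replicate block called 3 (Myc, Mxd4 and Odc1). In that fit 14 members and 18.4% of all probe sets had an unadjusted p below 0.05 (limma). In the main fit these were 14 and 17.1%. The share of all probe sets called with the block is not given here, so its 3 calls are not read as a result about the members. The same-numbered arrays correlated at 0.24, 0.28, -0.030 and -0.081 in their deviations from the group means. Wild-type and null arrays with different numbers ran from -0.39 to 0.21. Whether the numbers pair the samples cannot be told from these values. Probe sets called, 950 here, numbered 555 without a variance trend, 1746 with array weights, 322 among Xist-high arrays, 117 among Xist-low arrays, 599 with the marker covariate, 330 at an adjusted p below 0.01, 1776 without the 2 arrays together, and 466 (without Irf4 null array 4) to 2172 (without wild-type array 2) with 1 array left out; 525 were called without wild-type array 1, 561 without array 3, 533 without array 4 and 504 without Irf4 null array 2. The cause was not tested. The member median, 0.12, was 0.061 with a common median, which lowered all genes to -0.038, 0.065 within Xist-low arrays, 0.16 with all probe sets averaged, 0.18 without the 2 arrays together and 0.084 to 0.15 with 1 array left out.

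Of the named members' values under alternatives, 532 kept sign and side of the threshold, 11 passed it newly, 2 (Odc1 within each Xist class) lost it and 28 changed sign, none of them of a called member; the cause was not tested. With a common median these were Nolc1 (-0.0027), Rrs1 (-0.028) and Ddx21 (-0.038). With the Xist-high term they were Rrp9 (-0.11), Bysl (-0.018), Rrs1 (-0.043), Polr1a (0.047) and Ddx21 (-0.017). Within Xist-high arrays they were Max (0.24), Rrp9 (-0.25), Bop1 (0.080), Rrs1 (-0.20) and Polr1a (0.088), and within Xist-low arrays Mxd1 (-0.041), Bysl (-0.46), Polr1a (0.0065) and Ddx21 (-0.055). With the marker covariate they were Rrp9 (-0.19), Bysl (-0.10), Rrs1 (-0.042) and Polr1a (0.069), and with all probe sets averaged Bop1 (0.032). With 1 array left out, Rrs1 ran from -0.020 to 0.11, Rrp9 from -0.028 to 0.57 and Ddx21 from -0.012 to 0.069. Mycn fell under the filter when its probe sets were averaged. The MAS5 values used here come without detection calls, which limits what dim probe sets can show.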
